A study of Homo sapiens with 4 samples.

Results

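The genes described here encode the proteins of the mitochondrial ribosome: 75 gene names that begin with MRPL (large subunit, 48 genes) or MRPS (small subunit, 27 genes) followed by a number, out of 14355 gene names in the tables. They were chosen by name alone. Ribosome footprints, the RNA fragments that ribosomes protect from digestion, came from Hermes 4B, an established human melanocyte cell line (skin, genotype WT in the labels). One group had received a control siRNA, the other an siRNA to CDH3-AS1 (a noncoding RNA antisense to the P-cadherin gene CDH3), both at 25 to 50 nM per the labels' protocols, which give the same medium and a cycloheximide wash of 100 µg/mL for all libraries. Each siRNA had 2 libraries, replicate 1 in batch 1 and replicate 2 in batch 2, as the labels name them. The labels do not say whether the 4 libraries are separate cultures, and the spread behind each p-value may therefore be technical.

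Mitochondria carry their own ribosome, which translates only the proteins encoded by mitochondrial DNA, all of them core subunits of the respiratory chain and the ATP synthase. Its ribosomal RNAs are mitochondrial, but every one of its proteins is encoded in the nucleus, translated on cytosolic ribosomes and imported. The footprints on MRPL and MRPS genes therefore report on cytosolic ribosomes making mitochondrial ribosome parts. Many subunits have counterparts in the bacterial ribosome, and others were added during the evolution of mitochondria. The small subunit binds and decodes the mRNA, and the large subunit holds the peptidyl transferase centre and the exit tunnel. Melanocytes depend on mitochondria as other cells do, and no member is a pigment cell gene.

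By the uniform nomenclature of ribosomal proteins, 44 members had a bacterial counterpart and 30 were specific to mitochondria. The names do not follow the structure in every case. MRPS30 (mL65) and MRPS18A (mL66) sit in the large subunit, and MRPS36 is a subunit of the 2-oxoglutarate dehydrogenase complex under its current symbol KGD4. Of the 3 paralogs of bacterial S18, MRPS18A and MRPS18C (bS18m) were in the tables used here, and MRPS18B was not analysed here, nor were MRPL23 and MRPS12. The members lay on 21 chromosomes, with 8 of them on chromosome 1.

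2 promoters are printed because MRPS16 and MRPL51 had the smallest unadjusted p in the siRNA comparison among the members lower and among those higher in both batches. Each run is the 250 bases before the RefSeq start in GRCh38.p14, 5′ to 3′ along the gene's strand, and capitals mark matches to CCGGAAG or its reverse complement CTTCCGG, the core of sites for ETS-family factors such as GABP (also called NRF-2), a known regulator of nuclear genes for mitochondrial proteins.
MRPS16 promoter, chr10:73252645-73252894, minus strand: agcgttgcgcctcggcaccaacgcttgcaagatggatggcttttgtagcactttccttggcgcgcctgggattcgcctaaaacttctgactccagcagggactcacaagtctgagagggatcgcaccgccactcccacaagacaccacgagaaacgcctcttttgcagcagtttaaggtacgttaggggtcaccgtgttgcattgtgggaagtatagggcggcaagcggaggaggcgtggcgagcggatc
MRPL51 promoter, chr12:6493263-6493512, minus strand: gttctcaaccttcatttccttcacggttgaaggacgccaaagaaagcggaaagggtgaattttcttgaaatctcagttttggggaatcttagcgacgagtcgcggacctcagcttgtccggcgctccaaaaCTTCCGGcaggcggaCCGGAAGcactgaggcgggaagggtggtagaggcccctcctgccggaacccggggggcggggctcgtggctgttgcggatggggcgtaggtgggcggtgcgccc
MRPS16 (gene at chromosome 10, 73248849 to 73252644) had no match and MRPL51 (chromosome 12, 6491886 to 6493262) had 2. Among the 68 members with a promoter in the RefSeq table, 24 (35.3%) held the ETS core in 250 bases, against 20.1% of all genes tested and 10.2% of all genes with a promoter there. The share was 35.7% for the large subunit (15 of 42) and 34.6% for the small (9 of 26). The longer palindrome-like core of NRF-1, CGCATGCGC or GCGCATGCG on the other strand, was in 3 of 68 members (4.41%), against 3.98% of genes tested. The ETS and NRF-1 words do not overlap in sequence. A match is a run of letters and not a measured binding site.

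A start-to-start neighbour on the opposite strand, a protein-coding gene within 1000 bases that is read the other way, was found for 18 of the 68 members (26.5%), against 17.01% of genes tested. MRPL46 and MRPS11, a large- and a small-subunit gene, were each other's neighbour on chromosome 15 with 320 bases between their starts. The shortest distances were 45 bases between MRPL27 and EME1 and 49 bases between MRPL49 and FAU. MRPL18 shared its start region with TCP1 (210 bases), and MRPL32 with PSMA2 (202 bases).

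The libraries held from 1842464 to 6348372 coding-sequence reads. Values in CPM are coding-sequence reads of a gene, summed over its transcripts, for each 1000000 coding-sequence reads of the library, and 3 reads correspond to 0.473 to 1.63 CPM. All 7 melanocyte markers (PMEL, MLANA, TYR, TYRP1, DCT, MITF and SOX10) were present, with 21447 to 39741 CPM summed in each library. DCT was low, at 5.36 to 18.3 CPM. Between the siRNAs 0 of the 7 were called without a block. With the replicate number as a block, a fit that called 170 of 10469 genes (1.62%, 73 of them lower), 2 were called lower. These were MLANA (log2 fold change −0.70, edgeR adjusted p = 0.0397) and TYR (−0.68, edgeR adjusted p = 0.0498). The p-values of this fit take the spread as shared by all genes, as set out below. The control library of batch 1, the shallowest, stood apart: 8 listed skeletal muscle markers summed to 3727 CPM in it and to 3.07 to 6.93 CPM in the other libraries, and 4 listed fibroblast markers to 492 CPM against 0.355 to 4.25 CPM. The fibroblast sum lay in the collagens COL1A1 (379 CPM) and COL1A2 (111 CPM), while LUM was at 2.17 CPM and DCN at 0. The muscle marker ACTA1 was called lower with the block (−6.30, edgeR adjusted p = 4.69e-40), at −7.40 in batch 1 and −0.32 in batch 2. Beside the members named for their siRNA difference, the value without that library is given below where it differs. Transcripts of CDH3-AS1 were not analysed here, so the knockdown itself was not checked.

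The mitochondrial ribosome took a small share of the footprints. Members held 0.532% of coding-sequence reads in the control library and 0.478% in the CDH3-AS1 siRNA library of batch 1, and 0.560% and 0.536% in those of batch 2. In each batch the CDH3-AS1 siRNA library was the lower. Counted by name, the large subunit took 67.2%, 66.2%, 63.6% and 64.6% of the members' reads in the same order of libraries. The exact 95% binomial interval was widest in the shallowest library, 66.2% to 68.1%, and covers counting error only, as do the intervals below.

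Per length, almost all members stood above the typical gene. The level used here is CPM divided by the mean coding length in kb of the gene's transcripts. Of the 72 members that passed the filter on low counts, 69 were above the median of the 10469 genes tested, 33.4 CPM per kb, in their mean over 4 libraries. The median coding length was 471 bases for the members and 1039.5 for all genes tested. Whether length accounts for the higher level was not tested. The large-subunit median was 129 in control and 113 in CDH3-AS1 siRNA cells of batch 1, and 134 and 126 CPM per kb in batch 2. The small-subunit median was 84.0 and 90.1 in batch 1, and 122 and 107 CPM per kb in batch 2. On this measure the large-subunit median was the higher in each library. By the RPKM of each member's transcript with most reads it was higher in batch 1 (75.6 against 50.3 and 68.8 against 50.4 RPKM), but lower in batch 2 (81.3 against 82.4 and 73.6 against 74.5 RPKM). Members spread less than other genes: the upper quartile of the level was 1.90 times the lower for the large subunit, 2.71 times for the small and 6.75 times for all genes tested. The highest member was still 19.1-fold above the lowest that passed the filter. Shorter members tended to have the higher level (rank correlation with coding length −0.33 over 72 members of the same 4 libraries, a description). The level is itself divided by that length, which alone can give a negative correlation.

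In the large subunit, MRPL52 (mL52) had the highest mean level, with 485 and 411 CPM per kb in the control and CDH3-AS1 siRNA libraries of batch 1 and 511 and 502 in batch 2. Its lead over the rest held in 3 of 4 libraries, since MRPL36 reached 543 in the CDH3-AS1 siRNA library of batch 2. By the RPKM of the transcript with most reads, MRPL17 (mean 334) and MRPL57 (297) were above MRPL52 (288). MRPL17 (bL17m), a bacterial-type protein near the exit tunnel, followed with a mean of 362 and values from 328 to 392. MRPL57 (mL63) had a mean of 322 (287 to 376) and MRPL13 (uL13m) of 313 CPM per kb (163 to 498). MRPL51 (mL51) had a mean of 294 (146 to 364) and MRPL36 (bL36m), the counterpart of a very small bacterial protein, of 291 (83.5 to 543). The ranges of these last 5 overlap, so their order is not resolved by 4 libraries. The lowest were MRPL30 (32.7), MRPL1 (33.5), MRPL50 (41.5) and MRPL35 (44.7 CPM per kb), and these ranges overlap as well.

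In the small subunit, MRPS2 (uS2m) had the highest mean, 350 CPM per kb, but led only in batch 1: it had 472 and 413 CPM per kb in batch 1 and 239 and 276 in batch 2, control library first, where MRPS11 (312 and 350) and MRPS7 (265 and 284) were above it. By the RPKM of the transcript with most reads, MRPS11, MRPS34 and MRPS30 (means 179, 179 and 175) were above MRPS2 (156). MRPS11 (uS11m), of the mRNA-binding platform, had a mean of 281 and MRPS7 (uS7m), of the head, of 279 CPM per kb. MRPS23 (mS23), MRPS24 (uS3m) and MRPS34 (mS34) followed with means of 208, 203 and 194 CPM per kb. The lowest of those that passed the filter were MRPS31 (25.0), MRPS9 (26.9), MRPS18C (41.8) and MRPS26 (57.9). MRPS18A, the S18 paralog of the large subunit, had a mean of 77.0 and was between 68.9 and 84.0 in every library, above the 33.7 to 45.9 of MRPS18C. Over the 4 libraries together MRPS30 had the most reads of the members named for the small subunit. Its CPM was 216 and 188 in batch 1, just under the 220 and 193 of MRPS2, and 314 and 279 in batch 2, where it led.

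**Figure D1:**
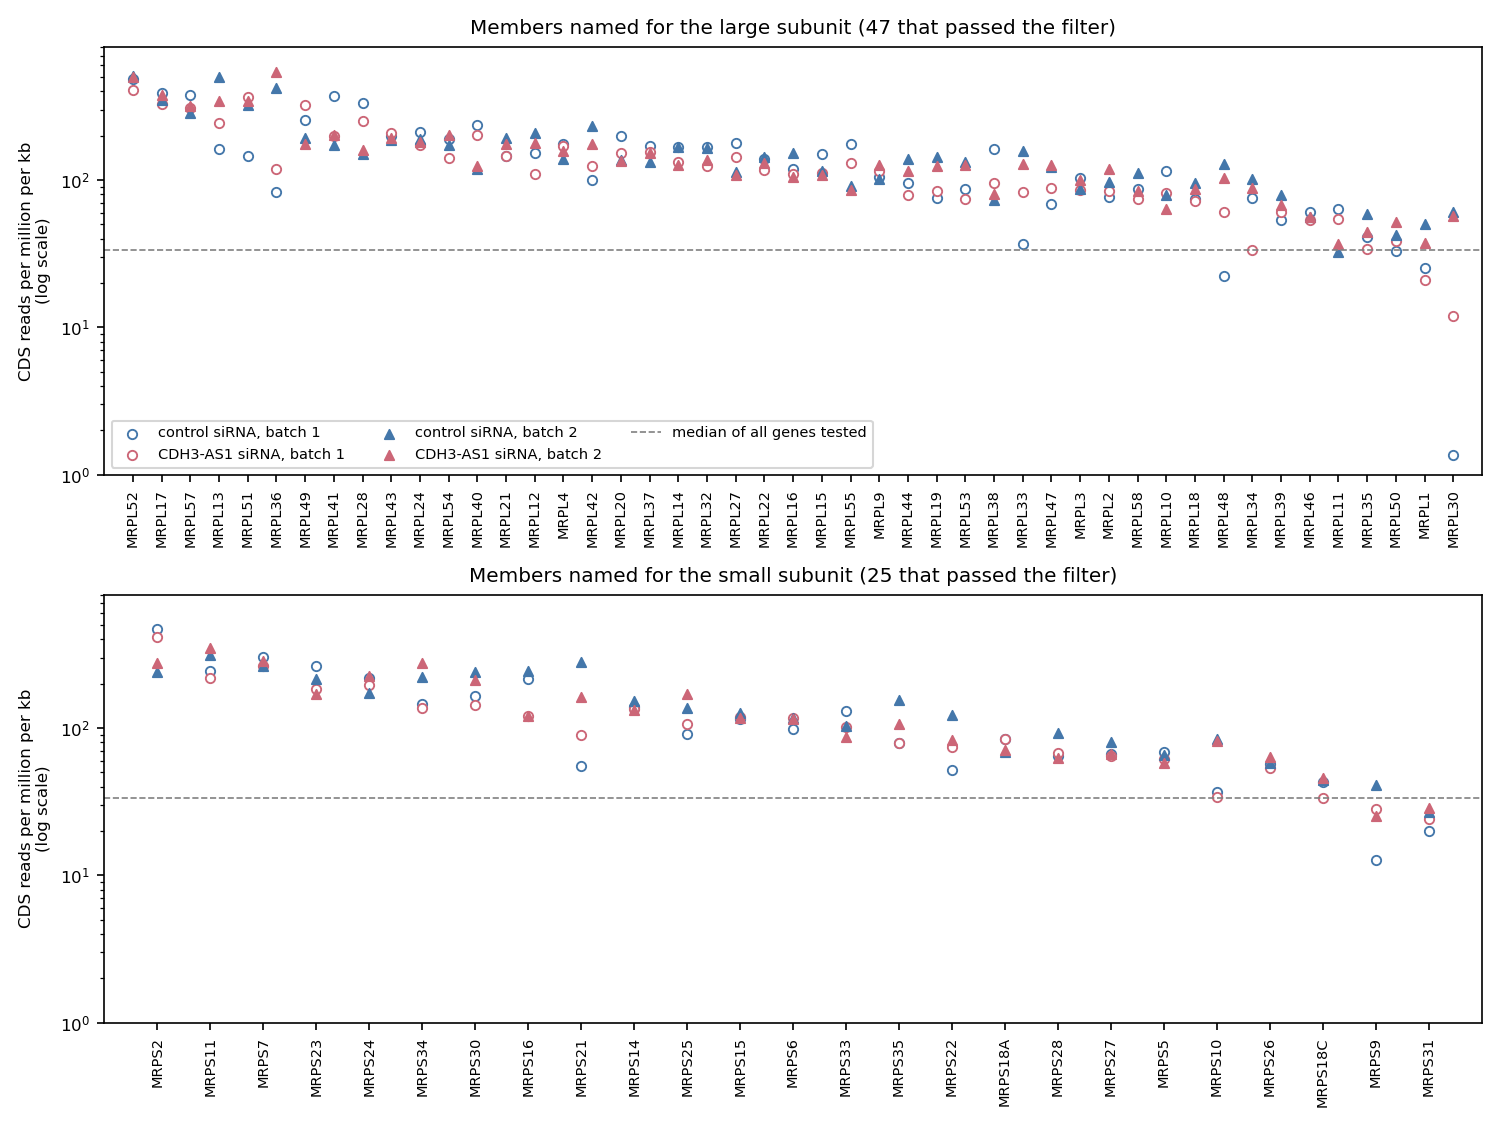
Level of each of the 72 members that passed the filter, in CPM per kb of coding sequence on a log scale, with 1 point for each library and members ordered by their mean within each subunit (by name). The dashed line is the median of all genes tested, 33.4; MRPL52 has the highest mean in the upper panel and MRPS2 in the lower, and MRPL30 has its lowest point, 1.37, in the control library of batch 1.

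3 members did not pass the filter. MRPL45 (mL45), a protein at the exit tunnel that faces the inner membrane, had 0 and 8 coding-sequence reads in batch 1 and 10 and 2 in batch 2, control library first. MRPS36 had 0, 2, 9 and 1 in the same order. MRPS17 (uS17m) is listed with 0 coding-sequence reads in every library, while its 3′ UTR had 4, 3, 2 and 4 reads; 3 reads, the limit that 0 allows, is 0.473 to 1.63 CPM. How reads shared with near-identical copies elsewhere in the genome were assigned is not stated in the labels, and these low counts are uncertain for that reason.

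The siRNA comparison asks whether ribosome density on these genes differed after knockdown of CDH3-AS1, the question the series' design names. No member was called. In bulk libraries, fewer cells of a type and less RNA per cell cannot be told apart, and footprints alone do not separate mRNA level from translation of each mRNA. Without a term for batch, edgeR's quasi-likelihood test called 0 of 72 members and 0 of 10469 genes (0.0%) at an adjusted p under 0.05. At an unadjusted p under 0.05 it found 1 member, MRPS16, of 72 (1.39%), against 2.15% of all genes. With the replicate number as a block it called 170 genes (1.62%) and 0 of 72 members. limma on log2(RPKM + 1) and DESeq2 called 0 members as well, with 1 member each at an unadjusted p under 0.05. On simulated counts, edgeR without the block recovered 0 of the genes changed 2-fold or 4-fold. Its lack of calls here therefore says little about changes of that size. The typical standard error was large: the median over the members was 0.37 (log2) without the block and 0.29 with it. With the block, the 95% interval of the log2 fold change lay within 1 log2 unit of 0 for 64 of 72 members. Without the block this held for 26. The blocked fit used 10469 degrees of freedom for each member, against 6.74 without the block. Its intervals, standard errors and p-values thus take the spread as shared by all genes, with no allowance for a member's own. Only under that assumption were changes above 2-fold outside the interval for the 64.

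MRPS16 (bS16m), a bacterial-type small-subunit protein whose loss is known to cause a mitochondrial disease in humans, was the member with the clearest difference. Its level was 77.1 CPM in control and 42.8 CPM in CDH3-AS1 siRNA cells of batch 1 (142 and 272 reads), and 86.9 and 43.3 CPM in batch 2 (489 and 113 reads). Both CDH3-AS1 siRNA libraries lay below both controls and the groups did not overlap. Its log2 fold change was −0.88 (SE 0.32, edgeR unadjusted p = 0.0281, adjusted p = 1.00), with a 95% interval from −1.64 to −0.13. With the replicate block it was −0.88 (SE 0.29, edgeR unadjusted p = 0.0026, adjusted p = 0.105). It stayed between −0.94 and −0.77 when each library was left out in turn, the control library of batch 1 included. Nearly all its reads were on the transcript with 414 coding bases, at 142, 270, 488 and 113 in the 4 libraries, so a shift between transcripts was not seen. MRPS16 was also the only member lower by at least 0.5 log2 in each batch (1 of 72, 1.39%, against 4.67% of genes), and no member was higher by as much in each (against 4.37%). Since MRPS16 is the smallest p of 72, it is a description and not a call.

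MRPL51 (mL51) had the largest positive difference among the members higher in both batches. Its level was 40.7 CPM in control and 102 in CDH3-AS1 siRNA cells of batch 1, and 90.6 and 95.8 CPM in batch 2. The control library of batch 1 is the low one, and the other 3 are alike. The log2 fold change was 0.61 (SE 0.43, edgeR unadjusted p = 0.202) without the block and 0.71 with it (SE 0.28, edgeR unadjusted p = 0.0128, adjusted p = 0.262). Without the control library of batch 1 it was 0.19, and without that of batch 2 it was 1.33.

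The other members named by the rule differed by less. Lower in both batches were MRPS23 with a log2 fold change of −0.38, MRPL10 (bacterial-type stalk base) with −0.36, MRPL14 with −0.33, MRPL16 with −0.31 and MRPL34 with −0.51. MRPL14 (uL14m), at the interface of the subunits, was the steadiest of these: 73.3 and 58.4 CPM in batch 1, 73.7 and 55.2 CPM in batch 2, control first, with no overlap. MRPL34, by contrast, had −1.11 in batch 1 and −0.14 in batch 2, and 0.05 without the CDH3-AS1 siRNA library of batch 1. Higher in both batches were MRPL9 (0.27), MRPS25 (0.30), MRPL2 (0.26), MRPL50 (0.28) and MRPS31 (0.20). MRPL9, whose bacterial counterpart lies near the L1 stalk, had 61.9 and 67.9 CPM in batch 1 and 59.7 and 74.7 CPM in batch 2. Fits that leave out a library have no batch term, so batch and siRNA are not balanced in them. The direction of these members within batch 2 was fixed by the rule that named them, which asked for the same direction in both batches. Several values changed without the control library of batch 1. Without it MRPL10 was at −0.06, MRPS23 at −0.21, MRPS31 at 0.04, MRPS25 at 0.06, MRPL2 at 0.13 and MRPL50 at 0.14, while MRPL14 was at −0.31 and MRPL9 at 0.32. MRPL16 was at −0.46 without it and at −0.09 without the control library of batch 2. MRPL2 also moved with the measure, to 0.70 with its transcript with most reads and to 0.03 with limma on log2(RPKM + 1). None of these had an unadjusted p under 0.05 in edgeR without the block.

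Counted over the members that passed the filter, more were lower than higher. In both batches, 24 of 72 (33.3%) were lower, against 27.8% of all genes, and 11 (15.3%) were higher, against 26.5%. Both CDH3-AS1 siRNA libraries lay below both controls for 10 members (13.9%; 14.1% of genes): MRPL14, MRPL15, MRPL16, MRPL22, MRPL24, MRPL32, MRPS5, MRPS16, MRPS23 and MRPS33. Both lay above for MRPL9, MRPL43, MRPL51 and MRPS6, which is 5.56% against 13.3% of genes. The first of these shares is near that of all genes, and the second is below it. The siRNA differences of the 2 batches had a rank correlation of −0.04 over the 72 members (a description).

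**Figure D2:**
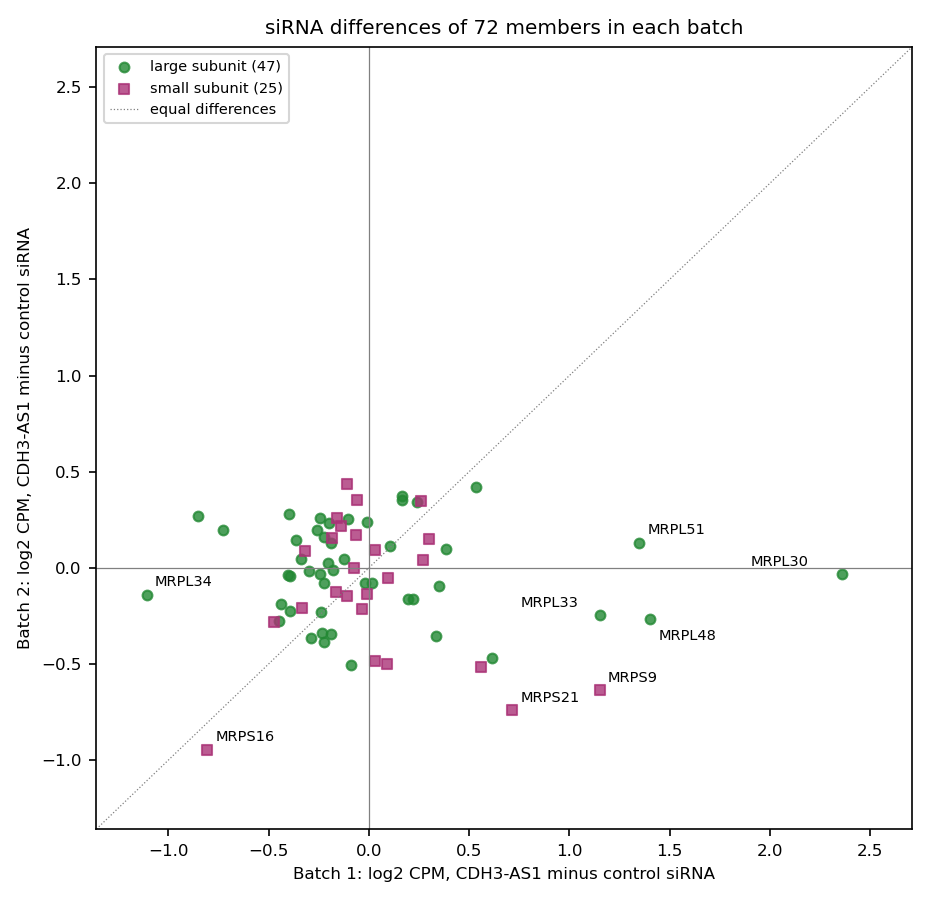
Log2 difference between CDH3-AS1 and control siRNA for each of the 72 members that passed the filter, in batch 1 (horizontal) and batch 2 (vertical), with large-subunit members as circles and small-subunit members as squares. MRPS16 is the only point below −0.5 on both axes, and MRPL30, MRPL48, MRPL51, MRPL33 and MRPS9 lie far to the right but near or below 0 on the vertical axis.

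The subunits were read against each other. The median log2 fold change was −0.06 for the large and −0.06 for the small subunit, with −0.03 for all genes tested. With the block these were −0.04, −0.01 and −0.01. Within batch 1 the medians were −0.19 (large) and −0.06 (small), and within batch 2 −0.03 and −0.06. Members with a bacterial counterpart had a median of −0.08 and mitochondria-specific members one of −0.04. These medians carry no test. Leaving out each library in turn gave −0.22 to 0.05 for the large and −0.18 to 0.09 for the small subunit. Their sign thus changed with the libraries used, in fits that have no batch term.

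Summed, the large subunit had 3574 CPM in control and 3167 CPM in CDH3-AS1 siRNA cells of batch 1, and 3559 and 3461 CPM in batch 2. Its mean was 3566 ± 10.7 (SD, n = 2) CPM with the control and 3314 ± 207 (SD, n = 2) CPM with the CDH3-AS1 siRNA. The CDH3-AS1 siRNA sums were 88.6% and 97.2% of their batch's control, and both lay below both controls (exact permutation test, two-sided, p = 0.333, the smallest that 2 against 2 libraries allow). The mean log2 ratio, −0.11, was −0.04 without the CDH3-AS1 siRNA library of batch 1 and −0.17 without that of batch 2. With TMM scaling of the libraries the batch 2 value was 100.7%, and the groups overlapped. The small subunit summed to 1746 and 1615 CPM in batch 1 and to 2039 and 1898 CPM in batch 2, or 92.5% and 93.1% of the control (exact permutation p = 0.667). Here the batches differed by more than the siRNAs. These sums take the subunits by name. The ratio of large to small by name was 2.05 and 1.96 in batch 1 and 1.75 and 1.82 in batch 2 (exact permutation p = 1.00). With MRPS30 and MRPS18A counted as large and MRPS36 left out, as in the structure, it was 2.61 and 2.49, then 2.34 and 2.41. Either way the ratio went down with the siRNA in one batch and up in the other.

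**Figure D3:**
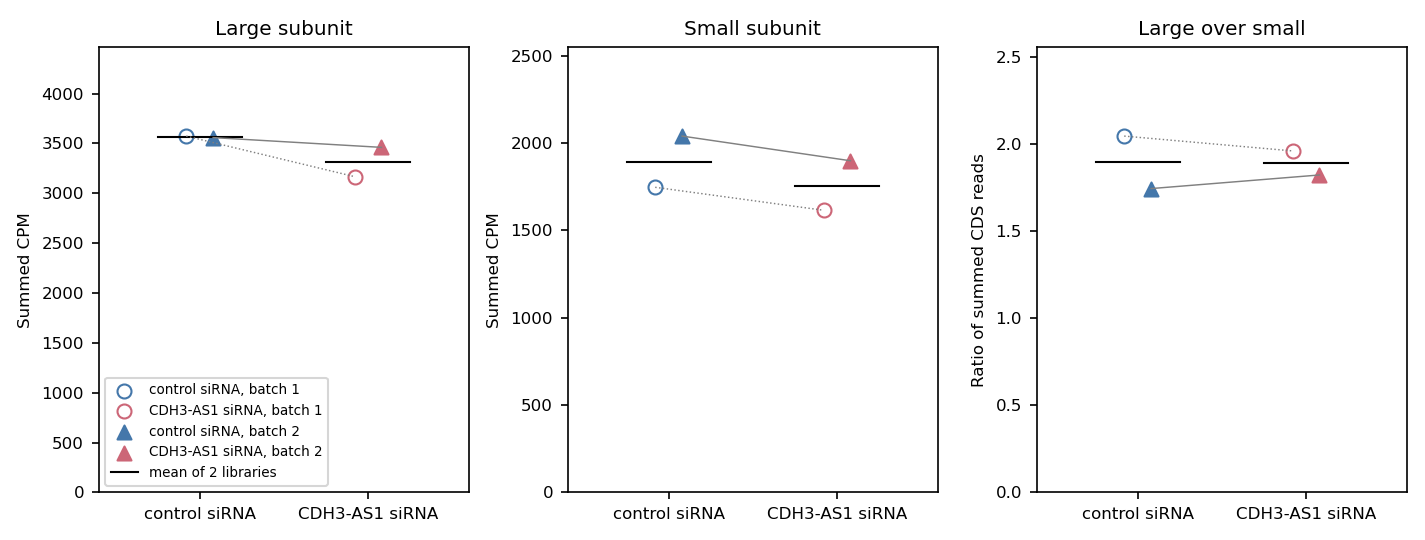
Summed coding-sequence CPM of large- and small-subunit members (by name), and their ratio, in each of the 4 libraries. Lines join libraries of the same batch and short bars are the means of 2 libraries. The large-subunit sums run from 3167 to 3574, the small from 1615 to 2039, and the ratio from 1.75 to 2.05.

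The genes around the mitochondrial ribosome were read in the same way, from lists of other subunits, translation factors and assembly factors. Of 5 subunits without an MRP name, 0 were called with or without the block, and their median log2 fold change was −0.07. CHCHD1, a small-subunit protein, had 82.5, 31.3, 63.3 and 67.8 CPM (control and CDH3-AS1 siRNA of batch 1, then of batch 2), GADD45GIP1 had a log2 fold change of 0.19 and DAP3 of 0.10. Of 14 mitochondrial translation factors, 0 were called either way, with a median of −0.04. The initiation factor MTIF2 had a log2 fold change of −0.64 (−0.63 in batch 1 and −0.59 in batch 2), the release factor homologue MTRFR −0.65 (0.14 in batch 1 and −1.09 in batch 2, at 4.34 to 10.7 CPM) and the formyltransferase MTFMT 0.24.

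Of 25 assembly and rRNA factors, 24 were tested and 0 were called either way, with a median of 0.04. TFB1M, which dimethylates the small subunit's rRNA, had 47.2 and 22.2 CPM in batch 1 and 61.5 and 30.7 CPM in batch 2, control first. Both CDH3-AS1 siRNA libraries lay below both controls, and edgeR gave an unadjusted p of 0.0327 (adjusted p = 1.00). With the block the log2 fold change was −0.99 (SE 0.32, edgeR adjusted p = 0.0850). The rRNA methyltransferase MRM2 had −0.86 and the ribosome-binding factor RBFA −0.59. Of 75 cytosolic ribosomal proteins, 61 were tested. With the block 1 was called, against 1.62% of all genes. It was RPL6, at a log2 fold change of 1.21 (edgeR adjusted p = 0.00739), with 2.36 in batch 1 and 0.42 in batch 2.

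Between the batches 12 members were called. With the siRNA as a covariate, edgeR called 9 of 72 members higher in batch 2 (12.5%), against 9.52% of all genes, and 3 lower (4.17%), against 6.3%. Without the siRNA term it called 4 members in all. Under both siRNAs, 38 members (52.8%) were higher in batch 2, against 36.1% of genes, and 16 (22.2%) were lower, against 34.1%. The median log2 difference was 0.18 for the large and 0.19 for the small subunit, and 0.01 for all genes. The labels name only a batch number, and the control library with muscle markers is one of the 2 in batch 1, so the differences are given for both siRNAs, save that of MRPL30 between the controls, which rests on 1 read.

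MRPL36 had the largest difference that was alike under both siRNAs. Its level was 26.1 and 37.0 CPM in batch 1 and 131 and 169 CPM in batch 2, control first, and the batches did not overlap. The log2 difference was 2.26 (SE 0.29, edgeR adjusted p = 1.32e-12), with 2.32 between the control libraries and 2.21 between the CDH3-AS1 siRNA libraries. MRPL30 (uL30m) had 1 read in the control library of batch 1, under the limit of 3, and 30, 135 and 59 reads in the CDH3-AS1 siRNA library of batch 1 and the control and CDH3-AS1 siRNA libraries of batch 2. That is 4.73, 24.0 and 22.6 CPM in these last 3, and its log2 difference was 2.83 (SE 0.48, edgeR adjusted p = 1.81e-07) and 2.18 between the CDH3-AS1 siRNA libraries alone. MRPS10 (uS10m) had 22.3 and 20.6 CPM in batch 1 against 51.2 and 49.4 CPM in batch 2, a log2 difference of 1.24 (SE 0.33, edgeR adjusted p = 0.00249), with 1.20 in control and 1.28 in CDH3-AS1 siRNA cells.

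For the rest, the size depended on which siRNA was read. MRPS21, bacterial-type and small, was higher by 1.52 (log2), with 2.31 in control and 0.86 in CDH3-AS1 siRNA cells. MRPL48 was higher by 1.47, with 2.45 and 0.78, and MRPL33 by 1.24, with 2.04 and 0.64. MRPL13 was higher by 1.05 (1.62 and 0.53) and MRPL42 by 0.85 (1.21 and 0.52). MRPS34 was the reverse, higher by 0.84 with 0.63 in control and 1.04 in CDH3-AS1 siRNA cells. In all of these but MRPS34 the control library of batch 1 is the lowest of the 4. Lower in batch 2 were MRPL28 by −0.86 (−1.11 in control and −0.60 in CDH3-AS1 siRNA cells), MRPL40 by −0.82 (−0.97 and −0.66) and MRPS2 by −0.75 (−0.96 and −0.54) on the log2 scale. MRPS2 had 220 and 193 CPM in batch 1 against 112 and 129 CPM in batch 2, with no overlap.

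**Figure D4:**
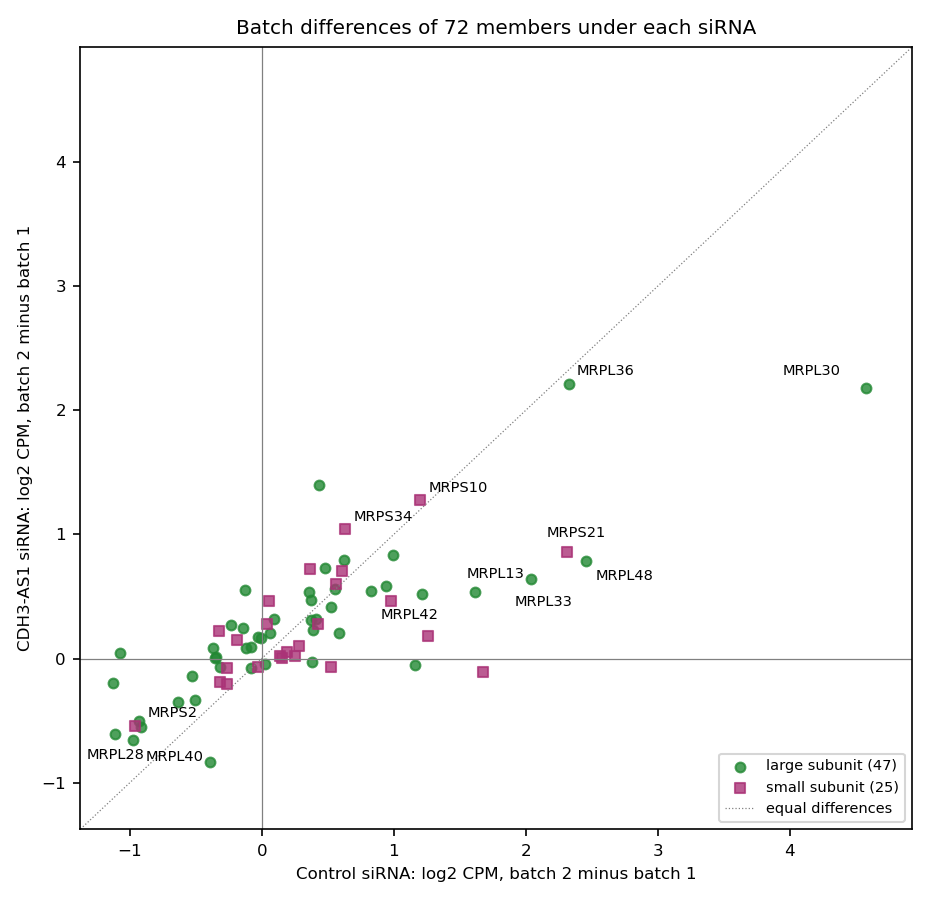
Log2 difference between batch 2 and batch 1 for each of the 72 members that passed the filter, in control siRNA cells (horizontal) and CDH3-AS1 siRNA cells (vertical); the 12 named points were called by edgeR with the siRNA as a covariate. MRPL36 and MRPS10 lie on the line of equal differences, while MRPL30, MRPL48, MRPS21 and MRPL33 lie to the right of it.

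The batch differences under the 2 siRNAs had a rank correlation of 0.75 over the 72 members. Members' log2 CPM correlated at 0.92 and 0.95 between the libraries of one batch, and at 0.70 (control) and 0.85 (CDH3-AS1 siRNA) between batches, as descriptions over members that share each library's depth. Footprints on the 13 mitochondrially encoded proteins, the products of this ribosome, moved much further with batch. They summed to 3211 and 2092 CPM in batch 1 and to 21119 and 22695 CPM in batch 2. Much of the batch 2 sums was MT-ND5, with 893 and 380 CPM in batch 1 and 10564 and 13102 CPM in batch 2. MT-ND1 had 407 and 310, then 448 and 510 CPM. The median log2 difference of the 13 was 2.84, and 12 of 13 were called higher in batch 2, against 9.52% of all genes. Without the block 0 of 13 were called between the siRNAs. With it 2 were called lower, against 1.62% of all genes called in either direction. These were MT-CO2 and MT-ATP8, with log2 fold changes of −0.83 (edgeR adjusted p = 0.0242) and −0.89 (edgeR adjusted p = 0.0357). The differences were larger in batch 1, whose control library held the muscle markers, at −1.38 for MT-CO2 and −1.31 for MT-ATP8, than in batch 2, at −0.30 and −0.62, and the part of that library was not tested. Without the block MT-CO2 was at −0.41 and MT-ATP8 at −0.64.

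Outside the coding sequence, the members' share of footprints in the 5′ UTR was below that of all genes in every library. The 5′ UTR held 3.31% and 2.65% of the members' 5′ UTR and coding reads in batch 1 and 2.62% and 3.56% in batch 2, control first, against 6.19%, 3.90%, 5.13% and 7.21% over all genes. Between the siRNAs the mean share differed by 0.14 percentage points (exact permutation test, n = 2 per group, p = 0.667). The small subunit was lowest, at 1.92%, 0.98%, 1.03% and 1.57%, against 3.98%, 3.48%, 3.51% and 4.62% for the large. These shares are not scaled to the length of the annotated 5′ UTR. Whether length accounts for the differences from all genes and between the subunits was not tested. The 3′ UTR share of all members was 1.59%, 1.74%, 0.92% and 1.40%.

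A few members held most of these reads. The 4 with most, MRPL18, MRPL42, MRPL20 and MRPL37, held 50.8% of the members' 5′ UTR reads. Under 2% in every library were 43 of 72 members, and 30 had none at all. Some members with none have short annotated 5′ UTRs, such as 44 bases in MRPL17 and 16 in MRPS30. MRPL35 and MRPS6 had none either, with 5′ UTRs of up to 136 and 123 bases. In MRPL18 (uL18m), which binds 5S rRNA in bacteria and has a single listed transcript, 45.3% and 48.9% of reads lay in the 5′ UTR in batch 1 and 33.4% and 31.5% in batch 2, control first. MRPL42 had 36.3%, 26.1%, 28.2% and 41.8% in that order, and MRPL11, MRPL55 and MRPS21 were the others with at least 10% in every library. MRPL20 (bL20m) went with the batch: 0.72% (1 read, against 137 in the coding sequence) and 7.38% (29 against 364) in batch 1, then 26.1% and 30.2% in batch 2.

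**Figure D5:**
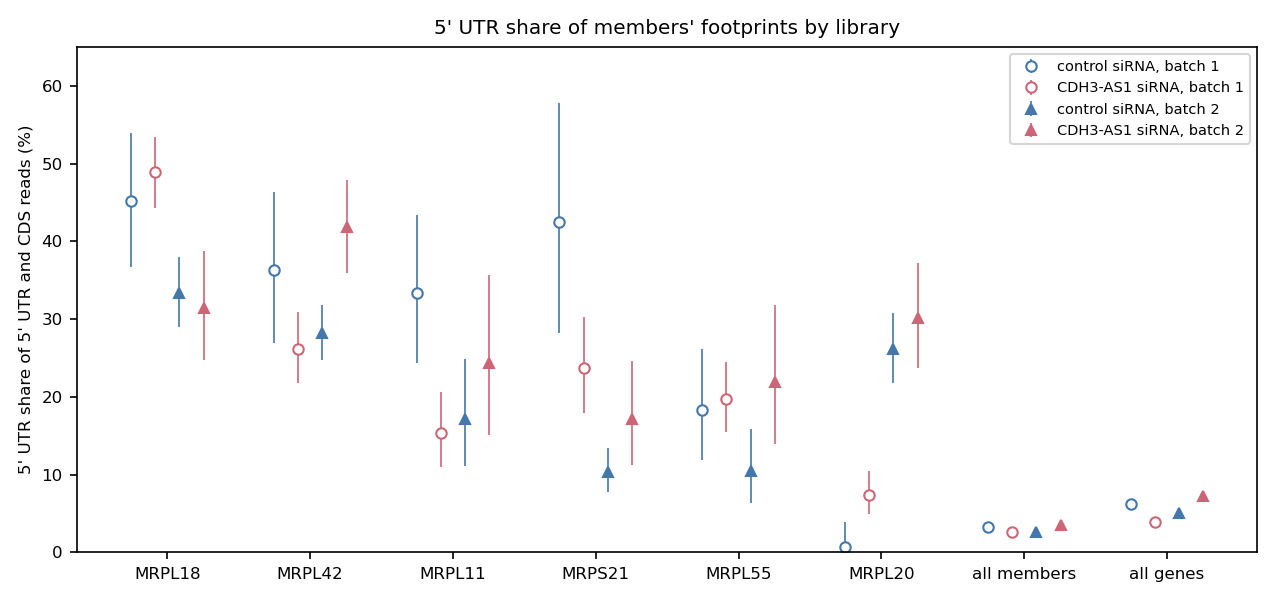
Share of 5′ UTR reads among 5′ UTR and coding-sequence reads, in percent, for 6 members, all members and all genes in each library, with exact 95% binomial intervals that cover counting error only. MRPL18 lies between 31.5 and 48.9, MRPL20 rises from 0.72 and 7.38 in batch 1 to 26.1 and 30.2 in batch 2, and all members together lie below all genes.

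The tables list counts by transcript, with no statement of how reads shared by transcripts were assigned, and 51 members have more than 1 transcript (205 transcripts in all, at most 9 for 1 member). In MRPS21, 130 of the 138 5′ UTR reads lay on a transcript with no coding-sequence read. MRPL55 had 126 5′ UTR reads in all. Of these, 13 and 50 in batch 1 and 4 and 12 in batch 2, control first, lay on 1 such transcript. All coding-sequence reads of MRPL30 lay on its transcript of 306 coding bases and none on that of 486. Of the 47 members with several transcripts and at least 20 reads in every library, 11 changed their leading transcript between libraries. In MRPL21 the transcript of 618 coding bases led in batch 1, with 69.1% and 48.8% of reads, and one of 588 bases led in batch 2, with 62.7% and 60.0%. MRPL42 changed in the same way, from its transcript of 429 coding bases (95.4% and 70.8%) to that of 387 (52.8% and 55.6%). MRPL4 and MRPL35 also changed with the batch, so 4 of the 11 did. In MRPL2 and MRPL32 the leading transcript went with the siRNA in both batches, in most libraries by small margins. In MRPL2 the transcript of 291 coding bases led in the controls, with 44.3% and 39.5% of reads (31 against 27 and 107 against 96 reads). That of 918 led in the CDH3-AS1 siRNA libraries, with 48.3% and 52.9% (128 against 104 and 82 against 47). In MRPL32 the transcript of 567 coding bases led in the controls, with 51.4% and 51.6% (54 against 51 and 163 against 153). That of 324 led in the CDH3-AS1 siRNA libraries, with 51.1% and 54.5% (137 against 131 and 66 against 55). Each count is set against that of the other of the 2 transcripts. The other 5 changed in some other way. No test was made of these shares.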

How the data were processed

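The samples were 4 ribosome-profiling libraries, 2 for each siRNA. Per the file headers, the authors deposited for each transcript the counts of reads in the 5′ UTR, coding sequence and 3′ UTR, the lengths of these regions and an RPKM value for each region. Per the submitters' processing notes the build was hg38 and DESeq2 was used; the aligner, the counter and the treatment of shared reads are not stated there or in the labels. Here coding-sequence counts were summed by gene name, and 1842464 to 6348372 of them stood behind each library. edgeR 4.0.16 (R 4.3.3) was run with TMM scaling, filterByExpr (minimum count 10, minimum total 15, which kept 10469 genes) and the quasi-likelihood test with Benjamini-Hochberg adjustment over all genes tested, threshold 0.05. The siRNA model had no batch term. The batch model had the siRNA as a covariate. limma 3.58.1 on log2(RPKM + 1) and DESeq2 1.42.0 were alternatives. Sums were compared by exact permutation of libraries. Level per length is CPM divided by mean coding length in kb.

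The labels give libraries of one replicate number the same batch, so the numbers pair the samples; deviations from the group means correlated at 0.58 across genes. edgeR estimated a biological coefficient of variation of 35.9%, and of 20.2% once the block was in the model. On simulated counts for 10469 genes, of which 10334 (196 of them changed) passed the filter again, the siRNA test without the block recovered 0 and the blocked test 14 genes changed 2-fold and 75 changed 4-fold, with 2 false calls.

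Members, gene lists and tests were chosen with earlier results of these data known. Named members were the 6 highest and 4 lowest per subunit in level per length, up to 6 per direction with the smallest unadjusted siRNA p that moved alike in the batches, every member called, MRPS30, MRPS36, the MRPS18 paralogs and every member that did not pass the filter. Of other lists, genes called or up to 3 with the smallest p were named. Members named for their 5′ UTR share, their transcripts, their neighbours or their lack of overlap were chosen after their values were seen, as was MRPL14 for its steadiness. RefSeq (GRCh38.p14) matched 74 of 75 members by symbol and MRPS36 by a synonym. Alternatives added after seeing the data were DESeq2 with the block, the batch model without the siRNA term and sums without each library.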

Additional observations from a re-analysis of the deposited data

How the results depend on the processing

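No member was called between the siRNAs under any of the alternatives run. The medians of both subunits moved by less than the spread between libraries of one siRNA, which lie in different batches. That spread, 0.24 for the large and 0.39 for the small subunit, exceeded the medians themselves. It includes the difference between batches and is a wide limit, so moving by less says little. The spread between libraries of one batch was 0.037 for the large and 0.076 for the small subunit. The sign of both medians was not the same in all alternatives. The count of all genes called did move: from 0 to 170 with the replicate block, 2 with DESeq2, 55 with DESeq2 and the replicate block, and 52 with no filter on low counts. Leaving out each library gave 0 to 73 genes, the 73 without the control library of batch 2 and 0 without any of the other 3; the cause was not tested. The replicate block changed no call of a member. It also changed no sign among the 12 members named by the siRNA rule. That rule asked for the same direction in both batches, so their sign with the block was all but fixed by it. Of 141 values of these 12, 3 reversed: leaving out each library gave −0.087 to 0.65 for MRPS25, −0.025 to 0.51 for MRPL2 (both below 0 without the CDH3-AS1 siRNA library of batch 2) and −1.35 to 0.053 for MRPL34 (log2). MRPL2 was at 0.70 with the transcript with most reads and at 0.03 with limma. The log2 ratio of the small-subunit sums, −0.11, ran from −0.22 to 0.0084, and was above 0 without the CDH3-AS1 siRNA library of batch 1 (0.0084) and without the control library of batch 2 (0.0037). Between batches, the model without the siRNA term called 538 genes and 4 members in place of 1657 and 12. The large-subunit batch median, 0.18, was 0.11 with at least 50 reads in each library, 0.13 with upper-quartile scaling and 0.23 with the transcript with most reads; these shifts exceed the spread between libraries of a batch, and the sign stayed the same. RPKM of the transcript with most reads gave median levels of 74.8 (large) and 64.4 (small) in place of 126 and 101 CPM per kb; it changes the reads, the length and the denominator together, and in both libraries of batch 2 it put the small subunit above the large. Leaving out a library from the batch model leaves no residual degrees of freedom, so it was not run. Depth limits the lowest members most: MRPL30, MRPL48 and MRPL33 had 1, 11 and 13 coding-sequence reads in the control library of batch 1.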
